A study of Mus musculus with 3 samples.

Results

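The nucleolar ribosome biogenesis genes described here are 45 genes whose products transcribe ribosomal DNA, modify and cut pre-ribosomal RNA, or assemble the ribosomal subunits. They were chosen by gene symbol from a named list, and all 45 were found among the 34591 rows of the deposited count table. The libraries came from 4T1 cells, a mouse mammary carcinoma line, carrying the genotype WISP2 OE, that is, altered so that WISP2, a CCN-family protein of the matrix, was over-expressed. There was 1 group of 3 libraries, and the empty-vector 4T1 cells named in the design were not analysed here, so the results describe levels within WISP2 OE cells and no effect of WISP2. The cloning protocol in the labels is written for Wisp1 constructs delivered by lentivirus with puromycin selection. The promoter that drives WISP2, and whether the cells are 1 clone or a pool, were not stated. RNA was made into libraries with a stranded mRNA kit. The names C1, C2 and C3 are the endings of the table's columns, which could not be tied to sample titles and carry no order.

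Ribosomes are made in the nucleolus. RNA polymerase I transcribes a long precursor RNA there, small nucleolar ribonucleoproteins (snoRNPs) guide its methylation and pseudouridylation, and a large set of processing factors folds and cuts it while ribosomal proteins are added. The small-subunit processome forms first on the nascent transcript, and the large-subunit precursor follows a separate path that involves the PeBoW complex. In tumour cells this pathway is widely studied as a target of the transcription factor MYC.

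The totals were 17630755 (C1), 67028365 (C2) and 47577315 counts (C3). The introduced gene, Wisp2, was at 429 (C1), 384 (C2) and 454 (C3) CPM (counts scaled to a common total per library). All 5 epithelial markers (Krt8, Krt18, Cdh1, Epcam and Cldn4) were above 1 CPM in every library, with summed levels from 2610 to 2880 CPM. Of 13 markers of leukocytes, fibroblasts, endothelium and erythroid cells, 2 reached 1 CPM in every library (Lyz2 and Cd68), and 4 (Cd3e, Hbb-b1, Hba-a1 and Alas2) were at 0 throughout. Myc itself was at 330 (C1), 308 (C2) and 322 CPM (C3). Nothing in the labels says that the 3 libraries came from separate cultures, so their spread may be technical.

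All 45 members were expressed at 1 CPM or more in every library, as were 89.8% of the 13026 genes that passed the filter on low counts, and 28 of the 45 (62.2%) were at 100 CPM or more in every library, against 18.1% of the 13026. The median member stood at 124 CPM and the median of all genes tested at 29.2 CPM. Because longer transcripts collect more reads, levels of different genes are compared per length, as CPM per kilobase of the principal annotated transcript (CPM/kb), except where CPM is named. On that scale the members' median was 53.9 CPM/kb, the median of the 11680 tested genes with a length was 11.2 CPM/kb, and 44 of 45 members lay above that second median. Together the members took 1.33% ± 0.030 of all counts (SD, n = 3), from 1.29% in C3 to 1.35% in C1. Npm1 and Ncl alone held 48.6% ± 1.03 of the members' counts. A lower level in bulk RNA can mean fewer cells with the transcript or less transcript per cell, and these cannot be told apart.

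**Figure D1:**
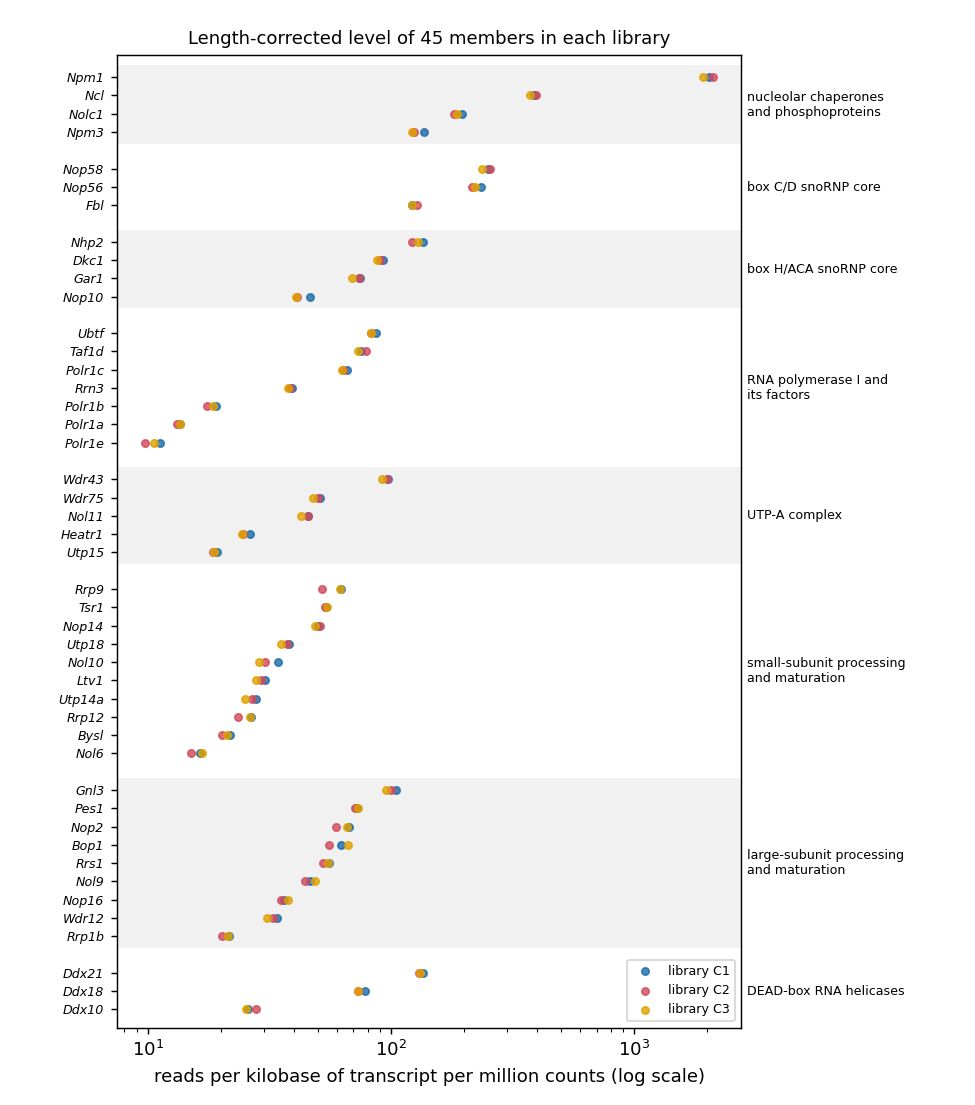
Level of each of the 45 members in the 3 libraries of WISP2 OE 4T1 cells, in CPM per kilobase of principal transcript on a log axis, grouped by role; each point is 1 library. Members run from 10.5 CPM/kb (Polr1e) to 2020.1 CPM/kb (Npm1), and the 3 points of a member lie close together next to the distance between members.

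The nucleolar chaperones and phosphoproteins were the highest of the 8 role groups. Npm1, the nucleophosmin chaperone of the granular component, was at 3330.3 (C1), 3432 (C2) and 3134 CPM (C3). Ncl, nucleolin, which binds nascent pre-ribosomal RNA, was at 3174 (C1), 3222 (C2) and 3070.4 CPM (C3). Both were lowest in C3 and highest in C2, and by CPM they were nearly equal, but the principal Ncl transcript is 8202 bases long and that of Npm1 1633 bases. Per length Npm1 stood at 2020.1 ± 93.0 CPM/kb and Ncl at 385 ± 9.47 CPM/kb (SD, n = 3), a ratio of Ncl to Npm1 of -2.39 ± 0.031 on the log2 scale. With coding length in place of the whole transcript the ratio was -1.34, so the distance between them rests in part on the length taken for Ncl. Nolc1, a phosphoprotein that escorts snoRNPs, was at 479 (C1), 442 (C2) and 457 CPM (C3), or 188 ± 7.60 CPM/kb.

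Npm3, the nucleophosmin relative that binds Npm1, was far below it. It was at 122 (C1), 110.5 (C2) and 109 CPM (C3), and C1 was the high library. Its length-corrected level was 128 ± 8.01 CPM/kb, 15.8-fold below Npm1. The log2 ratio of Npm3 to Npm1 was -3.89 in C1, -4.08 in C2 and -3.97 in C3, negative in each library and with each of 3 length definitions. Near-identical pseudogenes are listed for both. The row of Npm3-ps1 held 16.4% to 21.8% as many counts as Npm3, and adding them moved the mean log2 ratio to -3.72. The row of Gm14681, a copy of Npm1, held 2.56% to 2.63% as many as Npm1.

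Box C/D snoRNPs place ribose methyl groups, and the 3 members that belong to their protein core were all abundant. Nop58 was at 430.4 (C1), 439 (C2) and 406 CPM (C3). Nop56 was at 439.8 (C1), 404 (C2) and 416 CPM (C3). These 2 scaffold proteins therefore had opposite high libraries, C2 for Nop58 and C1 for Nop56, and per length they stood next to each other at 248 ± 9.83 and 224 ± 9.61 CPM/kb, with ranges that did not overlap. With the union of all annotated exons as the length their order reversed, at 39.5 CPM/kb for Nop58 and 102.5 CPM/kb for Nop56. Fbl, the methyltransferase fibrillarin, was at 147 (C1), 153 (C2) and 147 CPM (C3), or 124 ± 3.05 CPM/kb, and its spread between libraries did not pass the test for spread beyond counting noise (adjusted p = 0.0555, Poisson dispersion test over all 13026 genes). By its own row, Fbl was thus below both partners, with log2 ratios of 0.85 ± 0.091 for Nop56 over Fbl and 1.00 ± 0.042 for Nop58 over Fbl. With the union of exons these ratios were 1.54 and 0.16, in the same order.

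That gap depended on where reads of a copy are put. Gm5812, a processed pseudogene of Fbl at 96.8% identity over 984 bases, had its own row with 1723 (C1), 6299 (C2) and 4427 counts (C3), which is 66.7%, 61.5% and 63.5% of the Fbl counts. Reads from such a copy and from the parent gene can be assigned to either, and the handling of reads that map to several places is not stated. With both rows summed, Fbl came to 244 ± 3.65 CPM and 203.5 CPM/kb, and the log2 ratios to it became 0.14 ± 0.069 for Nop56 and 0.29 ± 0.036 for Nop58. A second gene, Tulp4, not annotated as a pseudogene, also matches Fbl at 95% identity or more over 200 bases or more. Its row held 128% to 135% as many counts as Fbl. It was not summed, and the part of its counts from the matching stretch was not determined. No other member had a copy row with so large a share as Gm5812: Gm16433 held 14.6% to 16.2% as many counts as Ddx18, and the copy rows of Nop56, Taf1d and Wdr12 held under 1%.

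The box H/ACA core, which carries out pseudouridylation, had 4 members within 3.03-fold per length. Dkc1, the pseudouridine synthase dyskerin, was at 259 (C1), 253 (C2) and 246 CPM (C3). Nhp2, an RNA-binding core protein, was at 141 (C1), 127 (C2) and 135 CPM (C3). Gar1, which helps release the modified substrate, was at 94.4 (C1), 93.9 (C2) and 87.8 CPM (C3). All of them, like Nop10, were highest in C1. Nop10, the smallest protein of the core, was at 51.3 (C1), 45.4 (C2) and 44.9 CPM (C3). Per length the order was Nhp2 at 129 ± 6.41, Dkc1 at 90.0 ± 2.30, Gar1 at 72.4 ± 2.91 and Nop10 at 42.5 ± 3.20 CPM/kb, and the ranges of neighbours in this order did not overlap. The place of Nop10 was not settled, because its coding part is 192 of 1109 bases: its log2 ratio to Dkc1 was -1.08 ± 0.076 per transcript length and 0.57 per coding length. Nhp2 stayed above Dkc1 (0.52 ± 0.067, and 0.82 per coding length) and Gar1 below it (-0.31 ± 0.028, and -0.32 per coding length).

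RNA polymerase I and its factors held the 2 lowest members per principal transcript, Polr1e and Polr1a. With the union of exons the 2 lowest were Polr1e (8.05 CPM/kb) and Wdr12 (8.82 CPM/kb). Per coding length they were Nol6 (21.4 CPM/kb) and Polr1b (21.6 CPM/kb). Polr1a, the largest catalytic subunit, was at 124.5 (C1), 122 (C2) and 125 CPM (C3). Polr1b, the second catalytic subunit, was at 76.2 (C1), 69.9 (C2) and 74.1 CPM (C3). The catalytic pair was close per length, at 13.4 ± 0.191 and 18.4 ± 0.803 CPM/kb, and which of them was higher changed with the length used (log2 Polr1b over Polr1a 0.45 per transcript and -0.16 per coding length). Polr1c, a subunit shared with RNA polymerase III, was at 86.9 (C1), 83.4 (C2) and 82.4 CPM (C3), or 64.1 ± 1.80 CPM/kb, 4.78-fold above Polr1a. Polr1e, part of a dissociable subcomplex, was the lowest member by CPM and per principal transcript, at 33.4 (C1), 29.1 (C2) and 31.5 CPM (C3). Its 10.5 ± 0.720 CPM/kb was just under the median of all tested genes. It lay below Polr1a by -0.36 ± 0.082 on the log2 scale, a gap that vanished per coding length (0.003).

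Per principal transcript the initiation factors were above Polr1a and Polr1b, the catalytic subunits, but with the union of exons Taf1d (9.71 CPM/kb) lay below Polr1a (10.4 CPM/kb) and Polr1b (12.6 CPM/kb). Ubtf, the upstream binding factor that holds ribosomal DNA in an active state, was at 254 (C1), 242 (C2) and 242 CPM (C3), or 83.8 ± 2.46 CPM/kb, the highest of the group. Taf1d, a subunit of the SL1 promoter selectivity factor, averaged 75.7 ± 2.96 CPM/kb, and Rrn3, which links the polymerase to the promoter, averaged 38.3 ± 0.686 CPM/kb. Taf1d holds 8 small nucleolar RNA genes and overlaps other genes on both strands, so part of its counts may belong to neighbours. Rrn3 and Polr1c were among the members that did not pass that test (adjusted p = 0.523 and 0.362, Poisson dispersion test), as was Polr1a (0.310).

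The UTP-A complex, which couples transcription of ribosomal DNA to early processing, had its members spread over 5.05-fold per length. Wdr43 was the highest, at 336 (C1), 332 (C2) and 318 CPM (C3), or 95.2 ± 2.68 CPM/kb. Wdr75 was at 151 (C1), 148 (C2) and 141 CPM (C3), or 49.7 ± 1.61 CPM/kb. Nol11 was at 144 (C1), 143 (C2) and 135 CPM (C3), or 44.5 ± 1.59 CPM/kb. In each of these C3 was the low library. Heatr1, the large scaffold of the complex, was at 178 (C1), 167 (C2) and 165 CPM (C3), or 25.0 ± 1.04 CPM/kb. Utp15 was at 79.4 (C1), 76.4 (C2) and 77.2 CPM (C3), or 18.8 ± 0.374 CPM/kb. All 5 members were highest in C1. Relative to Heatr1, the log2 ratio was 1.93 ± 0.038 for Wdr43, 0.99 ± 0.033 for Wdr75, 0.83 ± 0.048 for Nol11 and -0.41 ± 0.036 for Utp15. The first 3 kept their sign with every length, and Utp15 turned to 0.89 per coding length.

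The 10 remaining small-subunit factors lay lower and closer together, from 16.1 to 58.6 CPM/kb. Rrp9, a protein of the U3 snoRNP, had the highest mean, at 98.6 (C1), 82.5 (C2) and 97.7 CPM (C3). Its range of 52.0 to 62.2 CPM/kb overlapped that of Tsr1, and the highest was Nop14 with the union of exons and Tsr1 per coding length. Tsr1, a GTPase-like factor of late assembly, was at 182 (C1), 182 (C2) and 184 CPM (C3), or 53.9 ± 0.396 CPM/kb. Tsr1 was the steadiest member, with a coefficient of variation of 0.735%, while counting error alone gives 1.76% in C1. Nop14 (a processome scaffold protein), Utp18, Nol10, Ltv1 (an export and late assembly factor), Utp14a (the activator of a processome helicase), Rrp12 (an export factor) and Bysl (a late assembly factor) averaged between 21.01 and 49.8 CPM/kb. Nol6 was the lowest, at 75.4 (C1), 69.1 (C2) and 77.0 CPM (C3), or 16.1 ± 0.914 CPM/kb.

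The large-subunit factors ranged from 21.045 to 99.9 CPM/kb. Gnl3, the GTPase nucleostemin, was the highest, at 203 (C1), 195 (C2) and 185 CPM (C3). Rrp1b was the lowest, at 105 (C1), 98.1 (C2) and 104 CPM (C3). With the union of exons Pes1 was the highest and Wdr12 the lowest. Per principal transcript the 3 subunits of PeBoW lay between Gnl3 and Rrp1b. PeBoW is needed to cut the precursor of the large-subunit RNA. Pes1 was at 211 (C1), 206 (C2) and 213 CPM (C3), or 72.2 ± 1.29 CPM/kb. Bop1 was at 155 (C1), 138 (C2) and 166 CPM (C3), or 61.4 ± 5.73 CPM/kb. Wdr12 was at 110.0 (C1), 106 (C2) and 100.05 CPM (C3), or 32.4 ± 1.54 CPM/kb. Both were below Pes1 in every library, by -0.24 ± 0.111 for Bop1 and -1.16 ± 0.083 for Wdr12 on the log2 scale, and the gap for Wdr12 ranged from -0.53 per coding length to -2.98 with the union of all annotated exons. Nop2 (a cytosine methyltransferase of ribosomal RNA), Rrs1 (a factor that helps load the small RNA of the large subunit), Nol9 (a polynucleotide kinase) and Nop16 averaged 64.1, 54.3, 46.5 and 36.4 CPM/kb.

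Of the DEAD-box RNA helicases, Ddx21 was the third highest member by CPM, at 641 (C1), 612 (C2) and 619 CPM (C3). It averaged 132 ± 3.12 CPM/kb. Ddx18 averaged 74.7 ± 2.87 CPM/kb. Ddx10 was at 80.5 (C1), 87.3 (C2) and 78.9 CPM (C3), or 26.3 ± 1.42 CPM/kb, so the group spanned 5.03-fold. Ddx10 was highest in C2, while its 2 relatives were highest in C1.

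Across all roles the 10 highest members per length were Npm1, Ncl, Nop58, Nop56, Nolc1, Ddx21, Nhp2, Npm3, Fbl and Gnl3. With the union of exons 7 of these stayed among the 10 highest, and Nop58, Fbl and Gnl3 did not. Per coding length 8 stayed, without Fbl and Gnl3. Per principal transcript the ranges of Nhp2 and Npm3 (means of 129 and 128 CPM/kb) overlapped each other and those of Ddx21 and Fbl (132 and 124 CPM/kb). By its own row Fbl was below Ddx21 without overlap, but with Gm5812 summed in it came to 203.5 CPM/kb. Of the 16 pairs of partners set against each other, 16 had the same sign in every library, and 12 had the same sign with each of the 3 lengths. Per principal transcript 6 differed by 2-fold or more. With the union of exons 6 did so and per coding length 7, but not all were the same pairs. Among the first 6, Nop10 to Dkc1 changed sign per coding length, and Wdr12 was then 1.45-fold below Pes1. No test is attached to these ratios, since with 3 libraries an exact permutation of signs has 0.25 as its smallest two-sided p.

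**Figure D2:**
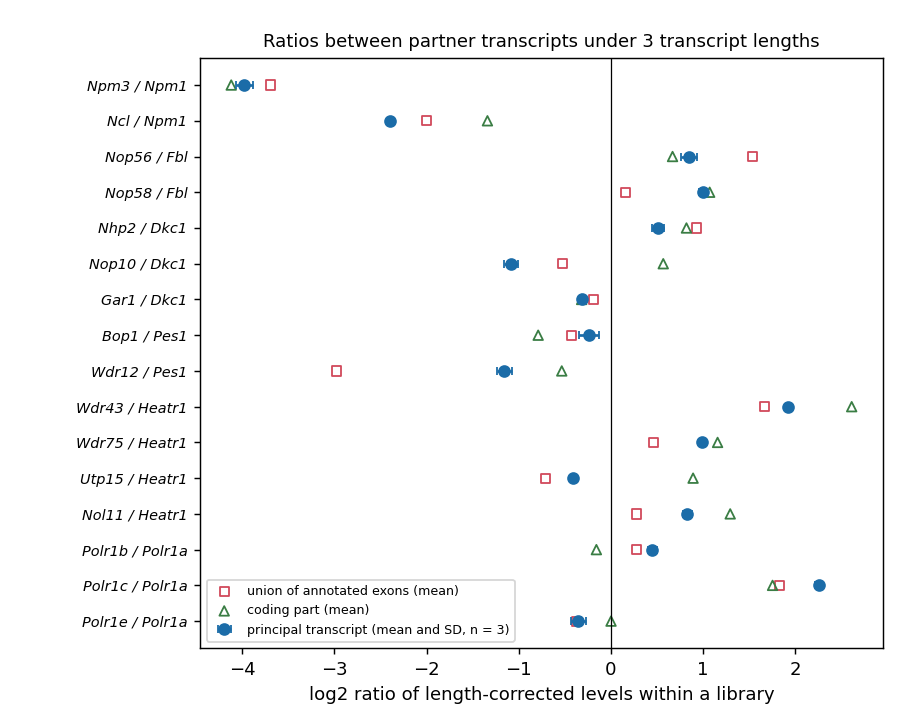
Log2 ratio of length-corrected levels for 16 pairs of partner transcripts; filled circles with bars are the mean and SD over the 3 libraries per principal transcript, squares use the union of annotated exons and triangles the coding part (means). The ratio of Npm3 to Npm1 stays near -4 with each length, while Nop10 to Dkc1, Utp15 to Heatr1, Polr1b to Polr1a and Polr1e to Polr1a change sign with it.

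The members varied little between the 3 libraries. The coefficient of variation of CPM ran from 0.735% to 9.73% with a median of 4.02%, and the medians were 5.41% over all genes tested and 3.86% over the 6271 tested genes at or above the lowest member's level. It was under 10% in all 45 members, beside 76.4% of all genes tested and 95.6% of those at or above the lowest member. At these depths even such differences can exceed counting noise: 37 of 45 members (82.2%) did so in the Poisson dispersion test with Benjamini-Hochberg adjustment, beside 39.3% of all 13026 genes tested and 57.7% of the 6271 at or above the lowest member. By role these were 4 of 4 chaperones and phosphoproteins, 2 of 3 box C/D and 4 of 4 box H/ACA proteins, 4 of 7 polymerase I genes, 4 of 5 UTP-A genes, 7 of 10 other small-subunit factors, 9 of 9 large-subunit factors and 3 of 3 helicases. The median level was 124 CPM over the members and 80.0 CPM over the 6271 genes. At higher counts this test passes smaller differences, and the part of level in the share of 82.2% was not tested. The 8 that did not pass were Fbl, Polr1a, Polr1c, Rrn3, Utp15, Nop14, Tsr1 and Ltv1. Of these, Fbl, Utp15 and Tsr1 passed once each library's GC trend was removed (adjusted p = 1.19e-08, 0.0349 and 0.00617, Poisson dispersion test). The count fell to 18 without C2, 20 without C3 and 31 without C1, and each of these settings rests on less data. Over all genes tested, 1761 of 12774 passed without C2, 1667 of 12970 without C3 and 4908 of 13337 without C1.

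Set beside genes expressed at similar levels, no member passed a test for greater spread. In edgeR's quasi-likelihood F test with Benjamini-Hochberg adjustment 0 of 45 members passed, beside 0.0691% of the 13026 genes (9 genes), and the lowest adjusted p of a member was 0.827. At an unadjusted p under 0.05 there were 3 members (Bop1, Rrp9 and Nol10) and 671 of all genes. The most variable members differed in which library stood apart. Rrp9 and Bop1 were low in C2, as given above, with standard deviations of 0.144 and 0.136 on the log2 scale. Rrp12 was at 115 (C1), 102 (C2) and 114 CPM (C3) (0.099), also low in C2. Nol10 was at 103 (C1), 91.1 (C2) and 86.3 CPM (C3) (0.133), and like Nop10 (0.105) it was high in C1.

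The members leaned together towards C1. Relative to each gene's own mean of log2(CPM + 0.5), the median member was at 0.04 in C1, -0.024 in C2 and -0.025 in C3, where the medians over all genes tested were 0.001, 0.002 and -0.003. C1 was the highest library for 31 of 45 members (68.9%) and the lowest for 1, Fbl. For Fbl, C1 (146.51 CPM) and C3 (146.58 CPM) were nearly equal, and with Gm5812 summed in C1 (244.2) was above C3 (239.6). C1 was the highest for 30.9% of all genes tested and 28.8% of those at or above the lowest member. The median in C1 was above 0 in each role group, from 0.019 for box C/D, where C2 stood higher at 0.04, to 0.055 for the small-subunit factors. This is a description and was not tested. C1 was also the shallowest library, and its summed level of the 13 markers of other cell types was 15.1 CPM, against 8.52 in C2 and 8.53 in C3, nearly all of it Lyz2 and Cd68; the part of either in the lean was not tested. The remaining 14 members were highest in C2 (7 members, Npm1, Ncl, Nop58, Fbl, Taf1d, Nop14 and Ddx10) or in C3 (7 members, Polr1a, Nol6, Tsr1, Bop1, Pes1, Nop16 and Nol9).

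**Figure D3:**
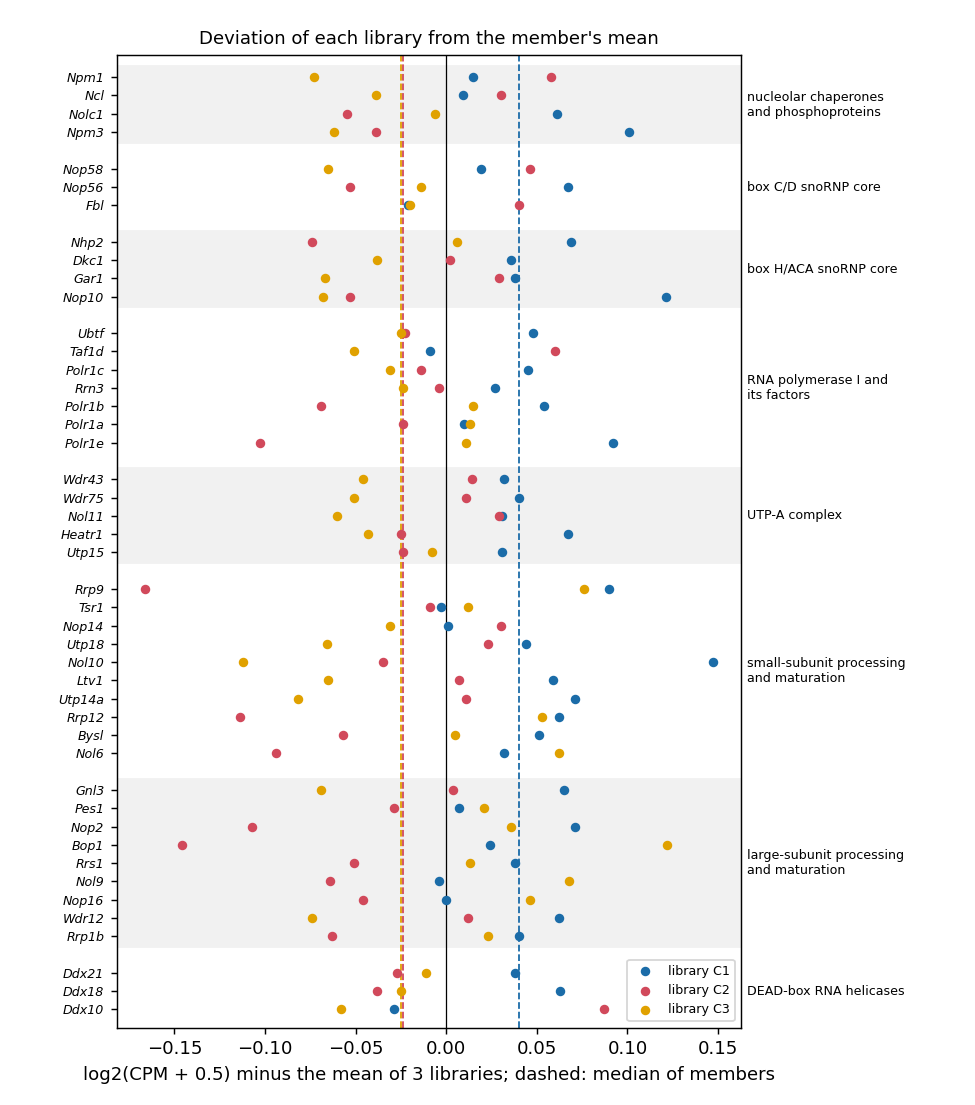
Deviation of each library from the member's mean on the log2(CPM + 0.5) scale, for all 45 members by role; dashed lines are the medians over members, 0.04 in C1, -0.024 in C2 and -0.025 in C3. The points of C1 lie mostly to the right, and the widest spreads are those of Rrp9, Bop1 and Nol10.

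Between the 2 deepest libraries the members separated by base composition. Of the 22 members whose principal transcript is over 50% GC, 17 (77.3%) were higher in C3 than in C2, with a median log2 difference of 0.07. Of the 23 members at or below 50% GC, 4 (17.4%) were higher in C3, with a median of -0.07. The same split over the 5792 tested genes at or above the lowest member with a known sequence gave 70.2% and 23.8%, with medians of 0.05 and -0.06, a split in the same direction. Pearson's correlation of GC content with the C3 minus C2 difference was 0.74 over the 45 members and 0.49 over the 5792 genes; these are descriptions across genes that share the same pair of libraries. Npm1 (42.4% GC) and Ddx10 (42.8%) had differences of -0.13 and -0.14, and Bop1 (58.2%) and Rrp9 (59.8%) of 0.27 and 0.24. Fbl (56.7%) and Gar1 (57.0%) went the other way at -0.06 and -0.10. When each library's GC trend was removed, 28 members (62.2%) exceeded counting noise, beside 31.5% of all genes and 46.7% of those at or above the lowest member. They were 25 of the 37 that did so before, and Fbl, Utp15 and Tsr1. For C1 minus the mean of the other libraries, the same correlation was 0.16 over the members.

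**Figure D4:**
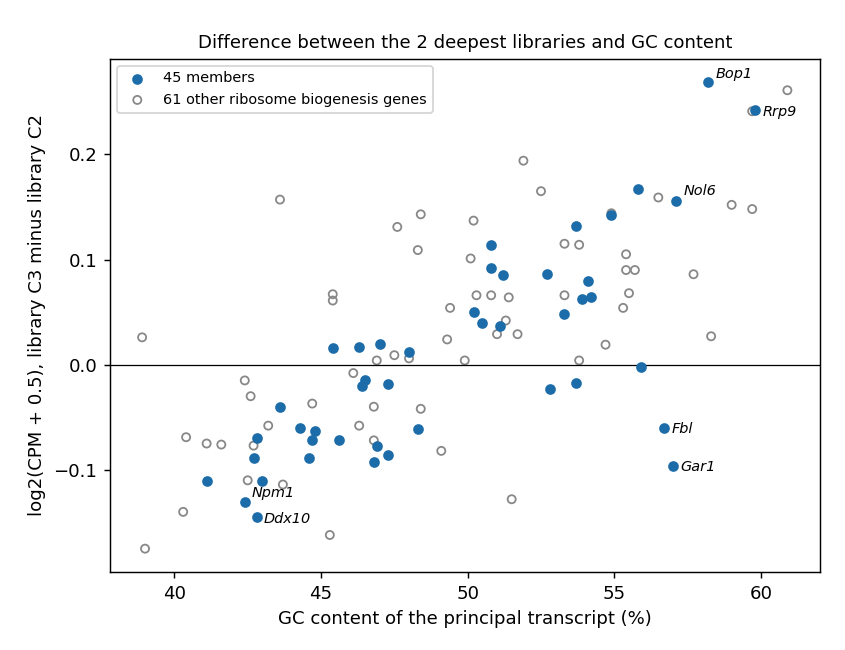
GC content of the principal transcript (percent) against the log2(CPM + 0.5) difference of library C3 minus library C2; filled circles are the 45 members and open circles 61 other ribosome biogenesis genes. Most members above 50% GC lie above 0 and most below 50% lie under it, with Fbl and Gar1 among the exceptions at -0.06 and -0.10.

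Promoters were read from RefSeq's table on GRCm38.p6, as 250 bases before to 50 bases after the annotated start, for 39 of the 45 members; Npm1, Fbl, Nol6, Rrp12, Bop1 and Rrs1 had no entry. Both strands were searched for 5 motifs given by their letters: CCGGAA, the core of sites bound by ETS factors; CACGTG, the E-box bound by MYC with MAX; GGGCGG, the GC box bound by SP1; CCAAT, bound by NFY; and AAGATGG, the YY1 core. No motif contains another, though matches of different motifs can share bases, and a gene with several annotated starts was counted once if any window matched. CCGGAA had the largest difference from all tested genes in percentage points (16.2) among the 5 motifs, while as a ratio of shares CACGTG stood first. CCGGAA was in 19 of 39 member promoters (48.7%) against 32.5% of 8492 tested genes and 16.7% of all 27025 genes in the table. CACGTG was in 8 of 39 (20.5%: Rrn3, Wdr43, Nol11, Utp18, Tsr1, Ltv1, Pes1 and Nop2) against 12.1% and 8.09%, but over the 250 bases before the start alone it was in 10.3% against 10.2% of tested genes. GGGCGG was in 82.1% against 70.8% and 38.2%, CCAAT in 38.5% against 43.7% and 41.1%, and AAGATGG in 2.56% against 8.46% and 7.28%. Over the 250 bases alone, CCGGAA was in 41.0% of member promoters against 26.6% of tested genes, and GGGCGG in 71.8% against 65.9%. In that window CCAAT was in 33.3% against 41.3% and AAGATGG in 2.56% against 5.16%. These counts describe letters in a window and were not tested.

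The 4 promoters below are shown because they belong to the highest members per length that hold CCGGAA. Capitals mark that motif or its reverse complement TTCCGG, and each is written 5′ to 3′ on the gene's strand. Nop58 lies at chr1:59684756-59685055 (+), Nolc1 at chr19:46075597-46075896 (+), Nhp2 at chr11:51619523-51619822 (+) and Npm3 at chr19:45749516-45749815 (-).
Nop58: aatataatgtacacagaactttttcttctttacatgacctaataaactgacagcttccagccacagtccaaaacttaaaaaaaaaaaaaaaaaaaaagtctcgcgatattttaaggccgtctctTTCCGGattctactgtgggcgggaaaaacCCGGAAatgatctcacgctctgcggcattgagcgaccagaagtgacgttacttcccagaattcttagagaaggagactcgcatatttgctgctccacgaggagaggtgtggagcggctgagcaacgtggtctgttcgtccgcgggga
Nolc1: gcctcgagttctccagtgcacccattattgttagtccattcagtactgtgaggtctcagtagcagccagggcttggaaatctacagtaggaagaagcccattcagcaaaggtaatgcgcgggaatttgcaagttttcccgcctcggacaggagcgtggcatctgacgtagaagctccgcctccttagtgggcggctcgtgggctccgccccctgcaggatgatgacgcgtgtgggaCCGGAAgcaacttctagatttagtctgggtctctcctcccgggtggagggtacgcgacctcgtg
Nhp2: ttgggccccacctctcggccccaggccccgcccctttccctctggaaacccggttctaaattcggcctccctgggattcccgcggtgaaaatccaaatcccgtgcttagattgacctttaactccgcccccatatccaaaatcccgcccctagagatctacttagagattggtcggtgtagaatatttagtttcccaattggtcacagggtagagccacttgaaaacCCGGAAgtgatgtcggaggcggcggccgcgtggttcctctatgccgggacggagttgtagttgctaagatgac
Npm3: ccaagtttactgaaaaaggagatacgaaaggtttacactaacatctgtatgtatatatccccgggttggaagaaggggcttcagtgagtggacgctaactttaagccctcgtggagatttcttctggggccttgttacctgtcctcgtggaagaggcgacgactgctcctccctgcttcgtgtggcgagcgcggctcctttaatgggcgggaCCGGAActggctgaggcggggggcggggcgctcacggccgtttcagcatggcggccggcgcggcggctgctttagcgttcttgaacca
The motif sits close to the start in 3 of them, beginning at base -14 in Nolc1, -23 in Nhp2 and -38 in Npm3, while Nop58 has it on opposite strands at -126 and -97. In 10 of the 19 members it occurs more than once in a window, in Gar1 and Ddx10 as overlapping matches on both strands. The median level was 46.5 CPM/kb over the 19 with it and 61.003 CPM/kb over the 20 without.

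A second list of 63 ribosome biogenesis factors outside the 45 was examined in the same way, and 61 of them were in the table. Of these, 48 had a promoter entry, and CCGGAA was in 27 of the 48 (56.2%). CACGTG was in 18.8%, GGGCGG in 58.3%, CCAAT in 41.7% and AAGATGG in 4.17% of the 48, which was not tested. In the Poisson dispersion test 42 of the 61 (68.9%) exceeded counting noise, beside 39.3% of all 13026 genes tested and 57.7% of the 6271 at or above the lowest member. In edgeR's F test 0 of the 61 passed, beside 9 of the 13026 genes. Their median level was 38.5 CPM/kb, and together they took 0.627% ± 0.0148 of all counts. The highest per length were Mrto4, a large-subunit factor, at 129 ± 2.94 CPM/kb, Polr1d, a subunit of RNA polymerases I and III, at 125 ± 1.25, and Emg1, a pseudouridine methyltransferase, at 99.1 ± 2.24. The lowest per principal transcript were Taf1c, an SL1 subunit, at 5.71 ± 0.568, Ttf1, the terminator of ribosomal DNA transcription, at 6.30 ± 0.0873, and Mdn1, a very large AAA ATPase, at 7.48 ± 0.311 CPM/kb. As among the members, C1 was the highest library for most of them (36 of 61, 59.0%), beside 30.9% of all genes tested and 28.8% of those at or above the lowest member. Mrto4 was at 122 (C1), 117 (C2) and 120 CPM (C3), and Polr1d at 151, 148 and 149 CPM in the same order, with C1 the highest for both.

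Position sets a limit on some of these values. Of the 45 members, 9 have a near-identical pseudogene in the annotation (95% identity or more over 200 bases or more), 19 overlap an exon of a gene on the opposite strand, and 2 (Ncl and Taf1d) overlap a gene on the same strand. Ncl, Nop56, Nop58, Dkc1, Taf1d, Wdr43, Tsr1 and Gnl3 hold 29 small nucleolar RNA genes between them. The kit marks strand, but the strand setting of the counting was not stated. For 21 members neither a copy nor an overlap is annotated, among them Nolc1, Nop58, Nop10, Gar1, Polr1b, Polr1c, Rrn3 and Ubtf.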

How the data were processed

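RNA sequencing of 3 libraries of WISP2 OE 4T1 cells was analysed from the authors' deposited table of raw counts per gene symbol. CASAVA 1.7, BWA, STAR, HTSeq and the genome build mm9 are named, per the submitters' processing notes, without role or order; strand and multiple-mapping settings were not stated.

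CPM used column totals (17630755, 67028365 and 47577315 counts). Lengths, GC content, copies and overlaps came from GENCODE M21 (GRCm38), matched by symbol: the principal transcript by annotation, and the one of middle length (the lower if even) where there were several. That length rule was chosen after the annotation was seen. Near-identical copies were found with BLAST 2.17.0 at 95% identity over 200 bases.

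Genes passing edgeR's filterByExpr (13026, all 45 members among them) entered 2 tests of spread between libraries with TMM scaling: a Poisson dispersion chi-square test (2 degrees of freedom) and an F test of each gene's edgeR 4.0.16 quasi-dispersion against the trended prior, both Benjamini-Hochberg adjusted at 0.05 over all genes in R 4.3.3 and tested on simulated data. With 1 group no test between groups exists. Alternatives were DESeq2-style median-of-ratios size factors, column totals, no filter, a robust fit, a pseudocount of 5 in place of 0.5, other lengths, a GC trend removed per library, and each library left out. The GC, length and copy-sum alternatives were chosen after seeing the data.

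Genes were named by a rule: the highest and lowest member of each role group, members of the 16 pairs, the 5 most variable members, and the 3 highest and 3 lowest of the other ribosome biogenesis factors. Tsr1, Nolc1 and the copies were added after their values were seen. Members, gene lists, pairs and motifs were chosen with earlier results of these data known.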

Additional observations from a re-analysis of the deposited data

How the results depend on the processing

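The counts of members past either spread test kept within 1.5 times of the reported value with DESeq2 size factors, column totals, no filter on low counts and the GC trend removed; for the F test, where 0 members passed in each setting, this held for the robust fit and each library left out too. Leaving out 1 library gave 18 to 31 members past the Poisson dispersion test, and 10 to 34 of the other ribosome biogenesis factors, with fewer libraries and counts in each such setting. Over all genes tested, 1667 to 4908 passed in these settings, beside 5118 with all 3 libraries. Of the 10 highest members per length, 6 were among the 10 highest by CPM without division by length. The members' share of counts was 1.39% when the 10 most abundant other genes were left out of the totals. The share of member promoters with the MYC-MAX E-box was 10.3% in the 250 bases before the start.

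Without length correction, log2 ratios turned to -0.91 for Nhp2 over Dkc1, -0.21 for Wdr75 over Heatr1, -0.27 for Nol11 over Heatr1, -0.75 for Polr1b over Polr1a and -0.55 for Polr1c over Polr1a. Per coding length they turned to 0.57 for Nop10 over Dkc1, 0.89 for Utp15 over Heatr1, -0.16 for Polr1b over Polr1a and 0.003 for Polr1e over Polr1a. In each case the change follows from the length used, by construction. The lean to C1 changed little with scaling: 31 members were highest there with TMM scaling and 30 with DESeq2 size factors.

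No paired analysis was possible because there was 1 group. With 3 libraries, 1 group and no titles tied to columns, the spread between libraries cannot be split into culture, preparation and sequencing. Lengths from a later annotation than the one used for counting limit comparisons between genes.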
